A study of Caenorhabditis elegans with 2 samples.

Results

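The experiment was a chromatin immunoprecipitation (ChIP-seq) on whole Caenorhabditis elegans larvae. The regions described here are the CEH-20 binding peaks found in the thresholded peak lists of both replicates, called recurrent peaks. They were chosen by overlap: a peak of the authors' conservative list belongs to them when it shares at least 1 bp with a peak of the thresholded list of replicate 1 and with one of replicate 2. The rule took 860 of the 2522 conservative peaks, which is 34.1%. The other 1662 conservative peaks comprised 316 that met a peak of replicate 1 only, 470 that met a peak of replicate 2 only and 876 that met neither list. A peak that did not recur in this sense can still be present in a replicate below the threshold.

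Both libraries came from strain RW12211, whose ceh-20 gene on chromosome III carries the insertion st12211[ceh-20::TY1::EGFP::3xFLAG], placed by CRISPR. Larvae were synchronised as starved L1 animals after bleaching and collected in the L4 stage at 49 hours; their sex was not collected. The description names an antibody against GFP for the pull-down, whereas the antibody label reads ceh-20, and chromatin was sheared by sonication. The 2 libraries are labelled as biological replicates with separate biosamples of 1 strain, and they form a single group in which every animal carries the tagged protein. Control libraries were not analysed here, and the lists hold no read counts, so the depth behind each peak is unknown.

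CEH-20 is a homeodomain protein of the PBX family, a branch of the TALE class. PBX proteins bind DNA in complexes with Hox proteins and with Meis-type TALE proteins, and in C. elegans CEH-20 works with the Hox proteins and with the Meis homologue UNC-62 in patterning the body axis, in the mesoderm and in migrating neuroblasts. Whole larvae hold many tissues, so a peak does not tell in which cells the protein was bound. The irreproducible discovery rate (IDR), by which the lists were thresholded, ranks peaks by how well they keep their order between a pair of inputs; the deposited score rises with this reproducibility up to 1000.

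The sequences under the recurrent peaks are shown first, because the letters at the summit are what a PBX protein or its partners could meet. Each spans 50 bp on either side of the summit of the conservative peak and is read on the + strand of ce11 (RefSeq sequence of WBcel235), with the matches to the named motif in capitals. The 2 strongest recurrent peaks with a PBX-Hox match (TGATNNAT, or ATNNATCA on the other strand) lay 3996 bp downstream of the start of W02H3.3 (chrX:11094140-11094240, signal 419) and in an intron of pqn-41, which encodes a glutamine-rich protein (chrIII:1923669-1923769, signal 329). The pqn-41 window held 2 matches.
W02H3.3: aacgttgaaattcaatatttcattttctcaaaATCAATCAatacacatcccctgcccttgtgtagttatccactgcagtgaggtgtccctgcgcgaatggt
pqn-41: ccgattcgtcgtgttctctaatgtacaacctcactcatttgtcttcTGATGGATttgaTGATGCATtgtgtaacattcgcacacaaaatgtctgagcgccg

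A PBX-Meis match (TGATTGAC or GTCAATCA) was rare among the recurrent peaks, and 2 peaks that held one are shown for that reason. They were the strongest left by the same choice of windows. They lay near M106.2 (chrII:10851258-10851358, signal 225) and near srlf-26 (chrIV:13682890-13682990, signal 192), both outside genes. The median signal of the 5 recurrent peaks with this match was also 192, so srlf-26 was not the second strongest of them.
M106.2: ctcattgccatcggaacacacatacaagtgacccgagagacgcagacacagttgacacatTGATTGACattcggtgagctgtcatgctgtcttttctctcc
srlf-26: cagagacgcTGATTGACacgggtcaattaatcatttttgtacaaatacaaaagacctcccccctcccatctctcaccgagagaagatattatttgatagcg

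The motif AGACGCAG (or CTGCGTCT) and GAGAGA (or TCTCTC) were more frequent under the recurrent peaks than the PBX-Meis letters. The same order held over all ranked peaks of the series, with 1.48%, 7.83% and 0.372%, and GAGAGA is the shortest of these patterns. AGACGCAG is shown at F44E5.4, an HSP70-family gene (chrII:11759432-11759532, signal 518), and in an intron of Y111B2A.12 (chrIII:12612633-12612733, signal 434), and GAGAGA at tasp-1 (chrIII:10759206-10759306, signal 719).
F44E5.4: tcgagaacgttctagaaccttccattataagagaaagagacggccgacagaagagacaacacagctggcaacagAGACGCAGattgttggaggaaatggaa
Y111B2A.12: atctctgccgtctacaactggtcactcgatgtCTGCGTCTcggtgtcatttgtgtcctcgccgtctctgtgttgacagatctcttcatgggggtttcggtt
tasp-1: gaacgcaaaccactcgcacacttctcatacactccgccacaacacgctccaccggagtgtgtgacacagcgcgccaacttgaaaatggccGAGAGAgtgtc

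Recurrence followed signal, a deposited measure of how strong each peak is, whose scale is not given in the sources used here. Signal belongs to what the rule used, so these values are a description only. The 860 recurrent peaks had a median signal of 132 (quartiles 107 and 169, range 2.01 to 735), and the other conservative peaks had a median of 72.9 (quartiles 63.3 and 84.6, highest 217). Peaks of replicate 1 only and of replicate 2 only had close medians, 85.4 and 82.9, and peaks in neither list had a median of 66.5. All 100 of the strongest 100 conservative peaks recurred, and of the next 100 peaks 95 did. The share then thinned out: among the peaks ranked after the strongest 600, 131 of the next 200 recurred, then 67 of 200, and then 36 of 200. The strongest conservative peak that did not recur ranked 127 and lay in an intron of W06H8.6 (signal 217, replicate 1 only). Next came peaks at unc-16, a JIP3 homologue (208), and T28F4.1 (208), again in replicate 1 only, and those nearest to C53C7.3 (188) and the hypoxia factor gene hif-1 (185), in replicate 2 only. The strongest in neither list ranked 688 and lay inside col-72, 237 bp upstream of W09G10.9 (signal 109). Its summit lay 5 bp from a tRNA gene, and the C53C7.3 summit lay 57 bp from another.

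**Figure D1:**
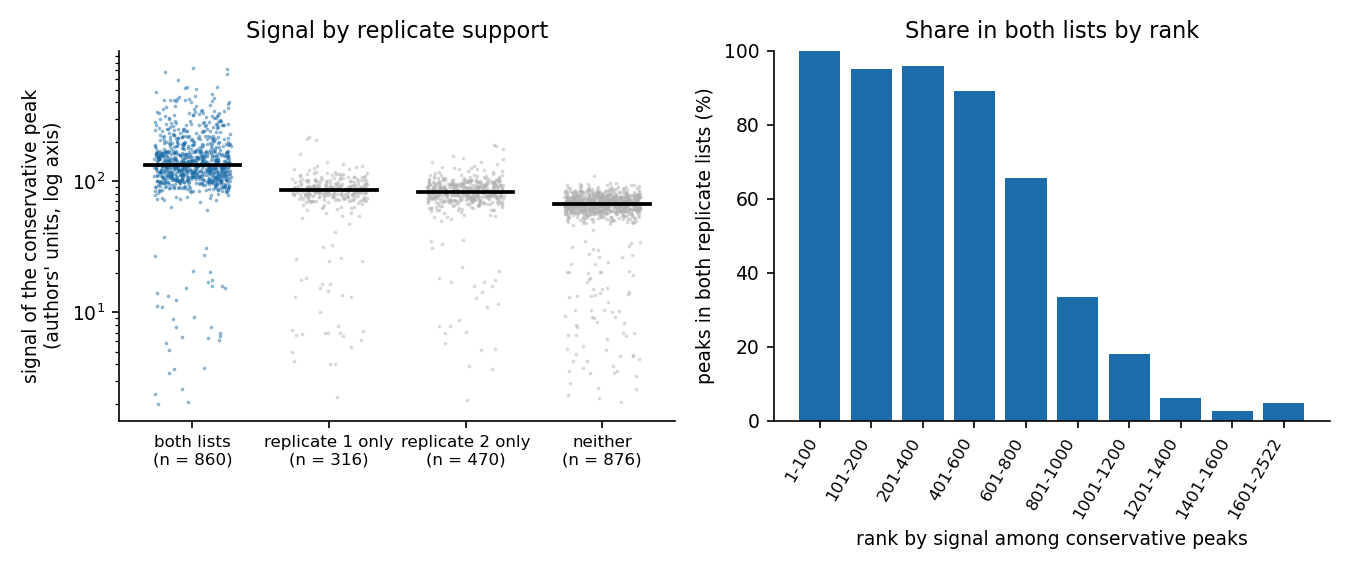
Left, signal of each conservative peak on a log axis by the replicate lists it overlaps, with the median as a black line (132 for both lists, 85.4 and 82.9 for one list, 66.5 for neither). Right, percentage of conservative peaks found in both lists by rank of signal, which is 100% in the strongest 100 and 4.77% after rank 1600.

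The peaks just inside and just outside the rule were close in value. The lowest score in the thresholded list of either replicate was 830. The recurrent peak with the lowest replicate 1 score lay 258 bp upstream of bet-2, a gene of the BET bromodomain family, with 831, and the highest replicate 1 score among peaks of the replicate 2 list only, at a peak 1954 bp downstream of the start of mak-1, a MAP kinase-activated kinase gene, was 828 in the ranked list of replicate 1. For replicate 2 the last inside was near F14B4.1 with 830, and the highest among peaks of the replicate 1 list only lay 240 bp upstream of lgg-1, an autophagy gene of the Atg8 family, with 826. Peaks in neither list scored up to 829 in the ranked list of replicate 1 and up to 830 in that of replicate 2, where 1 of them reached the threshold score. Most peaks outside overlapped a ranked peak of a replicate whose thresholded list they missed. This held for 460 of the 470 peaks of replicate 2 only, for 309 of the 316 of replicate 1 only, and in both replicates for 847 of the 876 peaks in neither list. An overlap of 1 bp sufficed, and the share that unrelated regions would reach was not tested. Across the 1616 other peaks with a ranked peak in both replicates, the 2 ranked signals had a Spearman correlation of -0.00370. Among the recurrent peaks it was 0.709. The rule used the thresholds, so these correlations are a description only.

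The recurrent peaks also differed from the rest in form. The most common width in the conservative list, 316 bp, was that of 638 recurrent peaks (74.2%) and of 99.3% of the others, and 214 recurrent peaks were narrower. All 860 had the top score of 1000, against 65.3% of the others, and 35 had a q-value above 0.05 against 181 of the others. The median GC content within 50 bp of the summit was 49.5% for the recurrent peaks and 45.5% for the others. Width, score and q come from the same peak calls as the rule.

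A small set of recurrent peaks had very low signal. There were 29 under 20, and 28 of these overlapped a stronger conservative peak. The lowest lay 600 bp upstream of cpr-9, a cathepsin B-like protease gene, with 2.01 beside an overlapping peak of 106. The next lay 386 bp downstream of the start of ins-13, an insulin-like peptide gene, with 2.08 beside 78.9, followed by those nearest to tofu-1 with 2.39 beside 126, T23E1.1 with 2.60 beside 94.7 and aqp-9, an aquaporin gene, with 3.44 beside 98.5. The exception without a stronger neighbour lay 2920 bp upstream of fos-1, a Fos transcription factor gene, with 7.67 in the conservative list, 73.5 in replicate 1 and 86.9 in replicate 2. In all, 79 recurrent peaks (9.19%) overlapped another conservative peak, against 252 of the others (15.2%). Merging overlapping peaks left 823 distinct regions, so 37 recurrent peaks were not the strongest of their region. At ftt-2, a 14-3-3 gene, 2 records of 279 and 88.9 had the same start and end and differed in their summits, 494 and 695 bp upstream of the gene's start.

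The summits and signals of the 2 replicates are given as a description, since the peaks were chosen for overlapping in both lists. The summit of the conservative peak lay a median of 14 bp from the replicate 1 summit and 14 bp from the replicate 2 summit, and the replicates' own summits lay 20 bp apart (quartiles 8 and 40 bp), with 80.7% within 50 bp. Whether the signals of the lists share a scale is not given. Replicate 1 values ran from 29.5 to 377 with a median of 68.6, and replicate 2 values from 8.84 to 362 with a median of 64.8. The ratio of replicate 1 to replicate 2 had a median of 1.07, with 0.693 and 1.59 as the 5th and 95th percentiles. The conservative signal was close to the sum of the pair, with a median ratio to that sum of 1.01. Across the 860 peaks the ranks of the replicates' signals had a Spearman correlation of 0.707, a description of peaks chosen for being high in both.

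**Figure D2:**
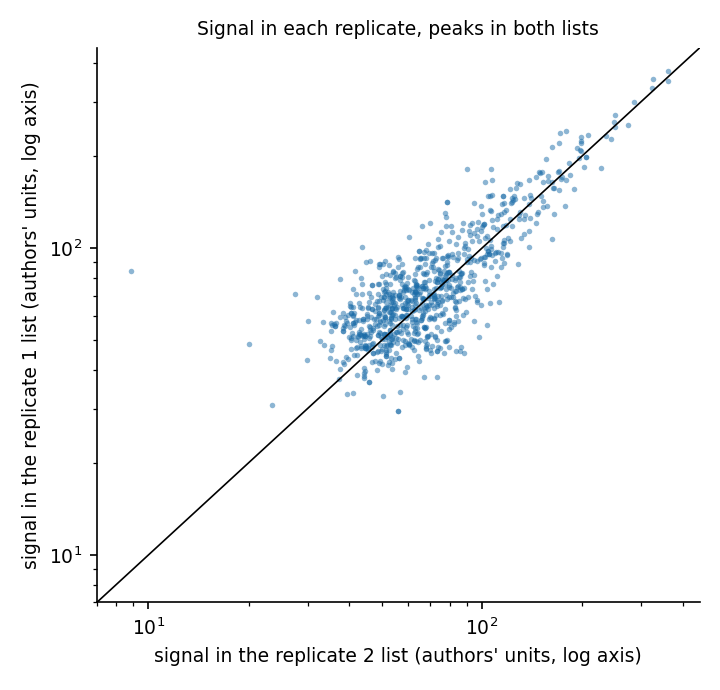
Signal of the 860 recurrent peaks in the replicate 1 list against that in the replicate 2 list, both on log axes in the authors' units, with the line of equal values. Most points lie near the line (median ratio 1.07), and the one far to the left is the zfp-1 peak with 83.9 in replicate 1 and 8.84 in replicate 2.

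The replicates disagreed by more than 2 times at 9 recurrent peaks, each higher in replicate 1, and at none in the opposite direction. Of these peaks, 8 overlapped no other conservative peak, and the exception was the weaker sup-26 peak described below. The widest gap was at zfp-1, which encodes the homologue of the human leukaemia fusion partner AF10, with 83.9 against 8.84 and a conservative signal of 156. That signal was above the sum of the pair, and how the replicate peaks were matched there was not tested. By the ratio of the replicates' signal ranks, the peaks that leaned most to replicate 1 were a pair near sup-26, an RNA-binding protein gene, and one in an intron of saeg-1. The stronger sup-26 peak had 181 in replicate 1 and 107 in replicate 2, and the weaker had the same 181 against 90.4, since both overlapped a single replicate 1 peak. The saeg-1 peak had 101.2 and 43.6. Those that leaned most to replicate 2 lay in an intron of pqn-41 (66.8 and 113), at zip-2, a bZIP transcription factor gene (51.3 and 97.8), and upstream of efl-1, the E2F homologue (56.1 and 103).

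The strongest recurrent peak stood on chromosome III, 274 bp upstream of the ribosomal protein gene rpl-3, with 735 in the conservative list, 377 in replicate 1 and 362 in replicate 2. On chromosome II the strongest lay 272 bp upstream of mog-4, a DEAH-box helicase gene of the splicing machinery (586), and on chromosome I 652 bp upstream of rpa-2, which encodes part of the replication protein A complex (477). The strongest on chromosome IV lay 2902 bp downstream of the start of K08F11.1 (680), with a second peak of 658 at 458 bp from the same start. The strongest on chromosome V lay 95 bp upstream of tos-1 (440). On X it lay in an intron of mom-1, the Porcupine homologue needed for Wnt secretion, with cest-16 as the nearest start 3368 bp away (425, with 197 and 206 in the replicates).

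The peaks ranked 16 to 35 stood at a mixture of housekeeping promoters and distant sites. Within 500 bp of a protein-coding start were those of the histone H4 gene his-37 (416), mtcu-2 (406), Y55F3AR.2, which shares its peak with the chaperonin gene cct-8 (404), the ubiquitin ligase gene eel-1 (389), drr-2, a homologue of the initiation factor eIF4H (383), rpl-12 (376), serp-1.1 (353), the cytochrome c oxidase gene cox-5A (345) and sec-61.G, a subunit of the protein translocon (344). Farther from any protein-coding start were peaks nearest to tag-340 (415), K02D3.1 (414), nspc-17 (410) and the calmodulin gene cmd-1 (372). So were those nearest to the nuclear receptor gene nhr-88 (370), ZK1248.17 (361) and egg-5 (352). Across these peaks distances ran from 569 bp at tag-340 to 6051 bp at K02D3.1. The ZK1248.17 and egg-5 summits lay 30 and 23 bp from the small nuclear RNA genes sls-2.1 and sls-2.4, described below. The peaks in introns of T28B11.1 (401) and of the autophagy gene epg-9 (346) completed this range, together with those of cest-16 and W02H3.3 given above. In each of these 20 peaks the replicate signals lay between 151 and 238.

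Location was not part of the rule and can be compared. Of the recurrent peaks, 377 were promoter proximal, with a summit no more than 500 bp from the start of a protein-coding transcript (43.8%, exact 95% interval 40.5 to 47.2), against 604 of the others (36.3%, 34.0 to 38.7). Exons held 20 of them (2.33%, 1.43 to 3.57) against 88 of the others (5.29%, 4.27 to 6.48), and in both of these comparisons the intervals did not overlap. Introns held 17.9% against 19.9%, and intergenic sequence 35.9% against 38.4%, with overlapping intervals. The intervals cover counting error over peaks of 1 pair of libraries. The median distance to the nearest start was 710 bp for recurrent peaks and 964 bp for the others, and the summit lay upstream of it in 72.9% (69.8 to 75.9) and 67.8% (65.5 to 70.1).

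Signal moved with these shares. When the conservative peaks were cut into 4 equal parts by signal, the strongest part held 589 recurrent peaks and only 42 others, and the 2 weakest held 16 and 37 recurrent ones, so only the part from 83.2 to 113, with 218 recurrent peaks and 412 others, holds many of each. Within it, 43.1% of recurrent peaks (36.4 to 49.98) and 40.05% of the others (35.3 to 45.0) were promoter proximal, and exons held 3.67% and 2.43%, the opposite order to the whole list. The promoter and exon intervals overlap in this range (exons 1.60 to 7.10 and 1.17 to 4.42). Signal is not matched within it: 33.5% of the peaks ranked 801 to 1000 recurred, and 18% of those ranked 1001 to 1200. The part of peak strength in the difference over the whole list was not tested. The replicates' own lists gave the same order as the whole: of the replicate 1 peaks 43.3% were promoter proximal when shared with replicate 2 (39.9 to 46.7) and 33.8% when not (29.1 to 38.7), and of the replicate 2 peaks 43.4% (40.1 to 46.8) and 38.4% (34.6 to 42.3).

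Promoters with more than 1 gene start were frequent among the recurrent peaks. A summit within 500 bp of the starts of 2 or more protein-coding genes was found for 92 recurrent peaks (10.7%, 8.71 to 13.0) and 86 of the others (5.17%, 4.16 to 6.35). Between signals of 83.2 and 113 the shares were 9.17% (5.69 to 13.8) and 5.83% (3.77 to 8.54), whose intervals overlap. Examples are the peak between the ribosomal protein genes rpl-39 and rps-30 (122, 226 and 273 bp upstream), that of the splicing factor genes rsp-1 and rsp-2 (112), that of the heat shock gene hsp-110 and the proteasome gene rpn-3 (199), and that of the chaperonin gene cct-1 and mig-5, a Dishevelled homologue of the Wnt pathway (178). At such a peak the gene that CEH-20 might act on cannot be told apart.

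**Figure D3:**
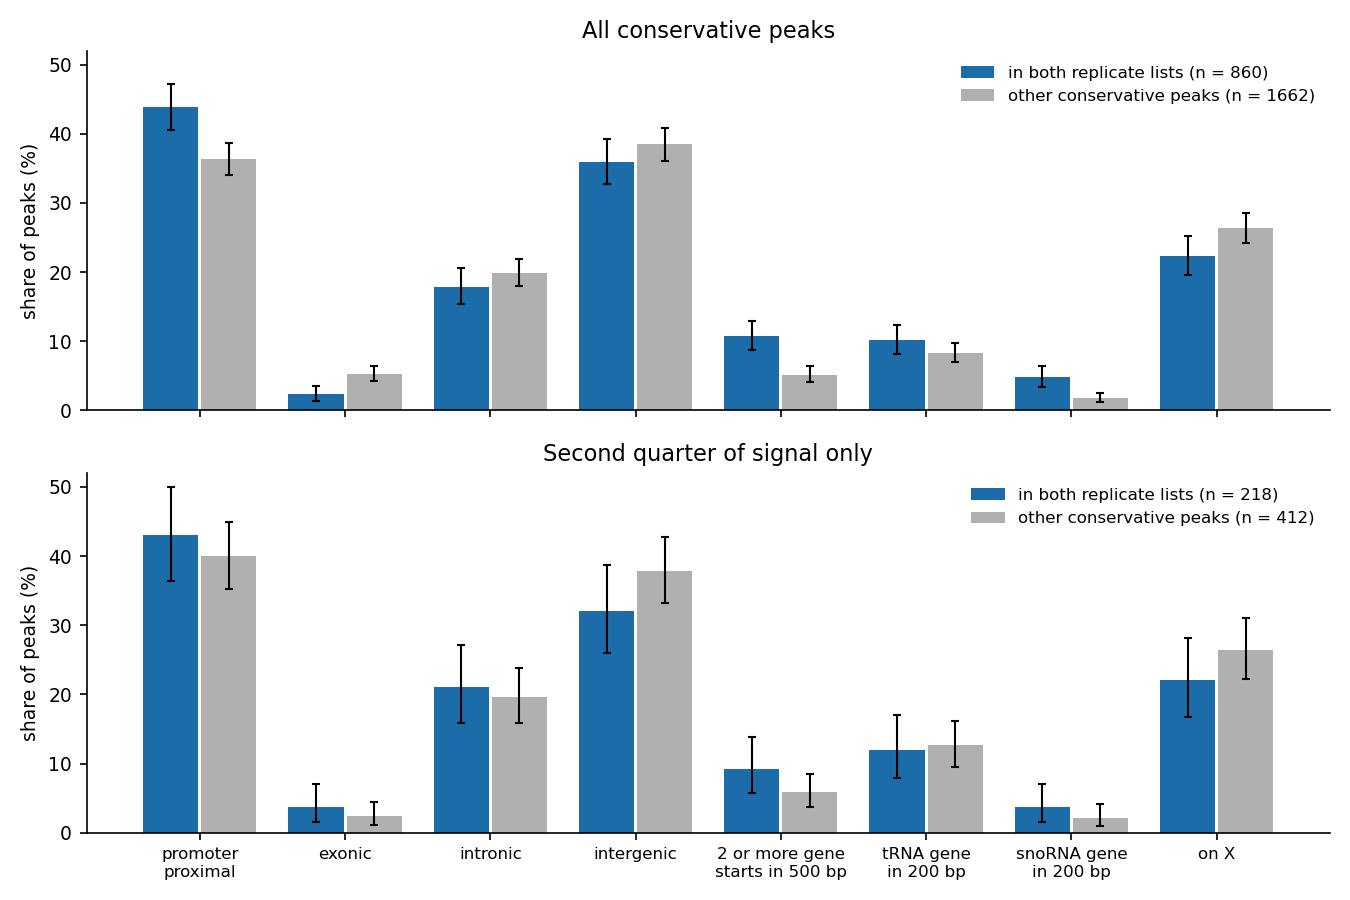
Share of the recurrent peaks (blue) and of the other conservative peaks (grey) with each property, in percent, with exact 95% binomial intervals, for all peaks (top, n = 860 and 1662) and for those with signals of 83.2 to 113 (bottom, n = 218 and 412). The promoter shares of 43.8% and 36.3% over all peaks stand at 43.1% and 40.05% in that range of signal.

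Recurrent peaks were spread over all 6 chromosomes, from 127 on IV to 192 on X. Their density was 10.8 per Mb for X and 8.09 for the autosomes, 1.34 times as high on X, while the other conservative peaks had 24.7 and 14.8, a ratio of 1.67. X held 22.3% of the recurrent peaks (19.6 to 25.3) and 26.4% of the others (24.2 to 28.5), intervals that overlap, and 30.5% of the conservative peaks on X recurred (26.9 to 34.2) against 35.3% on the autosomes (33.2 to 37.5). The highest share that recurred was on chromosome I, 37.9%, where the interval of 32.9 to 43.1 includes the value of every other autosome. In the replicates' own lists the X share of shared and unshared peaks was 22.2% and 23.4% for replicate 1, and 22.0% and 22.2% for replicate 2.

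The surplus of promoter sites among recurrent peaks was seen on the autosomes. There, 47.5% of recurrent peaks (43.6 to 51.3) and 38.2% of the others (35.4 to 40.9) were promoter proximal, whereas on X the shares were 31.3% (24.8 to 38.3) and 31.3% (27.0 to 35.9). X recurrent peaks were more often intergenic, 47.9% (40.7 to 55.2) against 32.5% on the autosomes (28.9 to 36.2). The other conservative peaks had the same order, 45.7% on X (40.9 to 50.5) against 35.9% on the autosomes (33.2 to 38.6). On X the intergenic intervals of recurrent and other peaks overlapped. The difference between X and the autosomes in the promoter surplus was not tested.

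**Figure D4:**
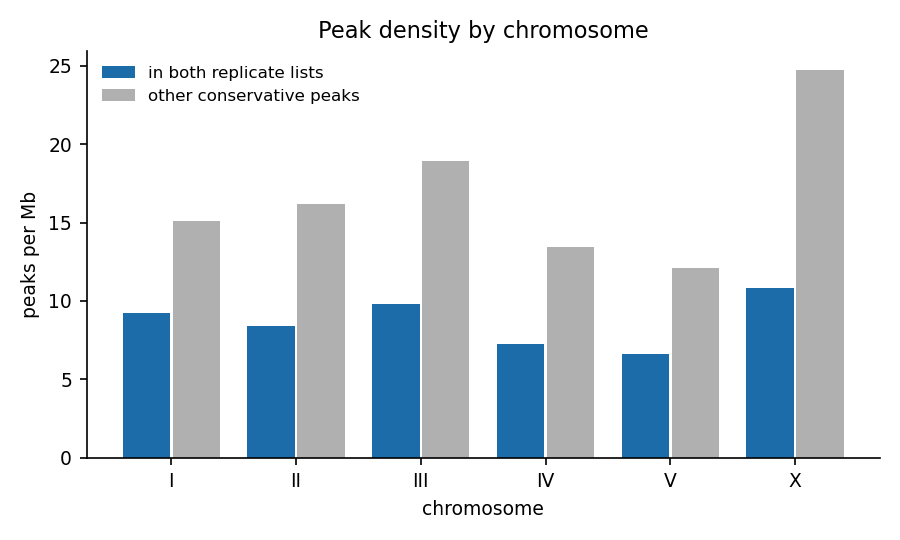
Conservative peaks per Mb on each chromosome, for those in both replicate lists (blue) and the others (grey). X has the highest density of each kind, 10.8 and 24.7 per Mb.

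Genes of small structural RNAs were frequent neighbours. These genes are short and are transcribed at high rates, tRNA genes by RNA polymerase III. A tRNA gene lay within 200 bp of the summit for 87 recurrent peaks (10.1%, 8.18 to 12.3) and 138 of the others (8.30%, 7.02 to 9.73), with overlapping intervals. A snoRNA gene, whose product guides the chemical modification of ribosomal RNA, lay as near for 41 recurrent peaks (4.77%, 3.44 to 6.41) and 30 of the others (1.81%, 1.22 to 2.57), without overlap. Between signals of 83.2 and 113 the snoRNA shares were 3.67% and 2.18% with overlapping intervals. In the replicate 1 list they were 4.68% of shared peaks and 2.54% of unshared ones (intervals 3.36 to 6.32 and 1.22 to 4.62), and in the replicate 2 list 4.68% and 1.89% (3.37 to 6.32 and 0.979 to 3.27).

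The strongest recurrent peaks beside snoRNA genes lay near F59C6.15 (signal 268, with 141 and 123 in the replicates), at ZK994.7 in an intron of pxn-1, a peroxidasin gene (268, with 166 and 107), and at C51F7.4 in an intron of frm-7 (252, with 128 and 112). Genes of small nuclear RNAs stood by 11 recurrent peaks (1.28%, 0.640 to 2.28) and 6 others (0.361%, 0.133 to 0.784), with overlapping intervals. The strongest of these were at sls-2.1, sls-2.4 and sls-2.2, which encode SL2 spliced leader RNAs that are joined to the downstream messages of operons, with signals of 361, 352 and 284. The sls-2.1 peak had 179 in replicate 1 and 171 in replicate 2, the sls-2.4 peak 177 and 151, and the sls-2.2 peak 130 and 146. MicroRNA genes stood by 5 recurrent peaks and 5 others. The strongest tRNA neighbour, in an intron of him-4, had 261, below these snRNA peaks.

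At protein-coding genes, 775 of 19973 genes had a recurrent summit in the window that runs from 2000 bp before a transcript start to 500 bp after it, which is 3.88% of all genes, and 40.5% of the 1912 genes with any conservative summit there. There was no such gene for 284 recurrent peaks (33.0%) and more than 1 for others, 164 with 2 genes and 48 with 3 or more. In 63 genes 2 or more recurrent peaks fell in the window, and M01H9.3, gsa-1, which encodes a stimulatory G protein subunit, and kel-3 had 3 each. Each list of genes below is set beside the 3.88% by description only. A list with few conservative peaks of any kind also has few recurrent ones, so the share of its bound genes, those with a conservative summit in the window, is given beside the 40.5%.

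The genes of the Hox and TALE proteins themselves come first, because CEH-20 acts with their products. Of 11 such genes, 5 had a recurrent peak in the window (45.5%, 16.7 to 76.6). Of the genes with a conservative peak there, the same 5 were of 6 (83.3%, 35.9 to 99.6). At psa-3, a Meis-related gene, the peak lay inside the gene, 235 bp upstream of an internal transcript start, with 179 in the conservative list, 73.8 in replicate 1 and 93.3 in replicate 2. Upstream of ceh-20 itself, at 733 bp, it had 168, with 67.5 and 96.6. At nob-1, a posterior Hox gene, it lay 625 bp upstream with 149 (56.6 and 82.6), and at ceh-13, the labial homologue, 775 bp upstream with 124 (61.8 and 53.1). The first 3 peaks were higher in replicate 2 and the ceh-13 peak was higher in replicate 1.

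The Meis gene unc-62 was the nearest gene of 4 recurrent peaks. The one in its window lay 58 bp downstream of a start with 101.3 (52.4 and 45.3), an exonic one had 165 (109 and 60.4), and those 2203 and 6008 bp upstream had 132 (45.4 and 88.1) and 103 (59.1 and 53.4). The Hox gene lin-39 had a conservative peak of 82.6 in the replicate 2 list only, where its signal was 42.8. Conservative peaks that did not recur lay inside mab-5 and ceh-60 but outside the windows of their starts, and ceh-40, egl-5 and php-3 had no conservative peak in the window. PBX-Hox letters stood under the ceh-13 peak (chrIII:7554835-7554935) and under the unc-62 peak at 2203 bp (chrV:4495208-4495308), shown because they join a PBX motif to a Hox or Meis gene; they were picked after the motif search.
ceh-13: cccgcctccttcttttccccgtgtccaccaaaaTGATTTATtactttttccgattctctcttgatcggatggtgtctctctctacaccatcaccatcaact
unc-62: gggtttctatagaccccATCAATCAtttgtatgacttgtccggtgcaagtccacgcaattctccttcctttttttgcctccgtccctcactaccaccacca

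Cytosolic ribosomal protein and translation factor genes held recurrent peaks more often than the background share of 3.88%, whereas mitochondrial ribosomal protein genes did not. Of 81 cytosolic ribosomal protein genes, 24 had one (29.6%, 19.99 to 40.8), from 23 peaks, while 42 had any conservative peak, so 57.1% of the bound ones had a recurrent peak (40.96 to 72.3). By the nearest start alone the count of 24 was 15. Some of these peaks are shared: the rpl-20 peak also lies in the windows of Y17G9B.5, its nearest start, and cyc-2.1, and the rpl-15 peak in those of K11H12.1 and K11H12.8. Beside rpl-3 they included rpl-15 (524, with 252 and 275 in the replicates), rpl-20 (505, with 248 and 251) and rpl-35 (426, with 241 and 179). The weakest of the 24 were rps-4 (118) and rpl-43 (103). Among 39 translation factor genes 8 had a recurrent peak (20.5%, 9.30 to 36.5): iff-2, the eIF5A homologue, at 296 (147 and 150), the elongation factor genes eef-2 at 207 (115 and 96.3) and eef-1G at 192 (93.7 and 101.4), and eif-3.C at 168 (82.4 and 86.5) led them. Of the 12 translation factor genes with a conservative peak, 66.7% had a recurrent one (34.9 to 90.1). Mitochondrial ribosomal protein genes had 2 of 70 (2.86%, 0.348 to 9.94), namely mrps-28 (155) and mrpl-28 (108), and 18.2% of 11 bound genes (2.28 to 51.8). The mrps-28 summit lay 6 bp from the snoRNA gene Y43F8C.22.

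Chaperone genes had 13 of 63 (20.6%, 11.5 to 32.7), and 56.5% of the 23 bound ones (34.5 to 76.8). The cct-8 peak had 404 (207 and 198), that of the cytosolic chaperone gene hsp-90 316 (170 and 145), that of the mitochondrial chaperone gene hsp-60 280 (157 and 127), and that of dnj-28 278 (131 and 148). The replicate 1 value was the higher in each of these except dnj-28. Of 26 respiratory chain genes 5 had a recurrent peak (19.2%, 6.55 to 39.4), led by cox-5A (345), cox-5B (258), the ATP synthase gene atp-1 (221) and cox-6B (122). Of 21 DNA replication genes 4 did (19.05%, 5.45 to 41.9), namely rpa-2 (477), the sliding clamp gene pcn-1 (186), the clamp loader gene rfc-4 (138) and mcm-3AP (159), which entered the list through the first letters of its name. Without mcm-3AP, a change made after seeing the data, it was 3 of 20 (15%, 3.21 to 37.9), and the interval then includes the 3.88%. Of 28 splicing genes 4 did (14.3%, 4.03 to 32.7), with prp-19 (192) and the Sm protein gene snr-4 (149) ahead of rsp-1 and rsp-2 (112). The snr-4 summit lay 24 bp from a snRNA gene, and the rfc-4 summit lay 1 bp from a microRNA gene. The rfc-4 peak was also that of eef-1A.1, so it counts in the translation factor list too. The mcm-3AP peak, 1529 bp upstream of its start, also lay in the windows of F20D12.12 and czw-1.

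The intervals of the proteasome (3 of 33 genes, 9.09%, 1.92 to 24.3), vacuolar ATPase (2 of 20, 10%, 1.23 to 31.7), histone (3 of 50, 6%, 1.25 to 16.5), homeobox ceh (4 of 63, 6.35%, 1.76 to 15.5), Wnt (1 of 26, 3.85%, 0.0973 to 19.6) and heterochronic lists (2 of 9, 22.2%, 2.81 to 60.01) all include 3.88%. In the order of the lists, the strongest were rpn-3 (199) and rpn-11 (91.3), vha-8 (176) and vha-12 (90.9), his-35 and his-37 on 1 peak (416) and the linker histone gene his-24 (73.9), ceh-38 (151) and ceh-5 (146) after ceh-20, mig-5 (178), and lin-66 (133) and lin-46 (128).

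Recurrent peaks stood at fewer than 3.88% of the genes of 4 large families, each of which also had few conservative peaks of any kind. They stood at 9 of 269 nuclear hormone receptor genes (3.35%, 1.54 to 6.26), where nhr-47 had 195, nhr-40 195, nhr-68 193 and nhr-255 134. They stood at 3 of 174 cuticle collagen genes (1.72%, 0.357 to 4.96), with col-94 at 275, col-185 at 130 and col-85 at 117; the col-94 peak also lies beside a snRNA gene. They stood at 3 of 140 genes of neuropeptides and insulin-like peptides (2.14%, 0.444 to 6.13), of which ins-39 had 200, nlp-76 106 and ins-13 the 2.08 given above. C-type lectin genes had 2 of 237 (0.844%, 0.102 to 3.01), clec-2 (142) and clec-126 (94.2), the only list here whose whole interval lay under 3.88%. Among bound genes the shares were 52.9% of 17 receptor genes (27.8 to 77.02), 27.3% of 11 collagen genes (6.02 to 60.97), all 3 peptide genes (29.2 to 100) and 50% of 4 lectin genes (6.76 to 93.2), and all 4 intervals include the 40.5%. The cytosolic ribosomal protein genes were the only list whose interval for bound genes did not include it, with a lower bound of 40.96 just above the share.

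**Figure D5:**
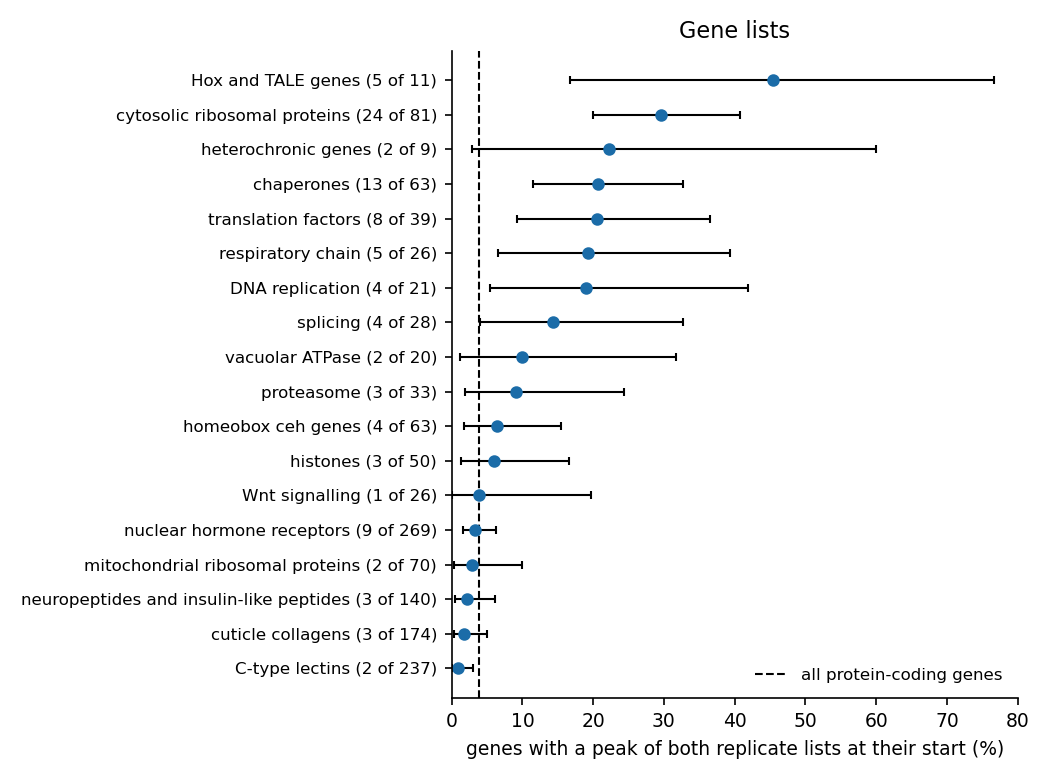
Percentage of the genes of each list with a recurrent peak at a transcript start, with exact 95% binomial intervals; the dashed line is the 3.88% of all protein-coding genes. Hox and TALE genes (45.5%), cytosolic ribosomal protein genes (29.6%) and chaperone genes (20.6%) lie to the right of the line, and C-type lectin genes (0.844%) to the left.

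Motif letters were rarer under ranked peaks in general than under conservative peaks of either kind, except for the TCF letters. Motifs were searched on both strands up to 50 bp from each summit, and a match describes the letters only. TGATNNAT was present in 82 recurrent peaks (9.53%, 7.66 to 11.7), in 10.5% of the other conservative peaks (9.04 to 12.04) and in 7.44% of all 56499 ranked peaks. TGATTGAC was present in 5 recurrent peaks (0.581%), in 14 others (0.842%) and in 0.372% of ranked peaks, and the Meis letters TGACAG (or CTGTCA) in 5.23%, 4.69% and 3.76%. Besides TGATTGAC, the M106.2 window printed above held TGACAG as well as GAGAGA and AGACGCAG.

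GAGAGA stood under 209 recurrent peaks (24.3%, 21.5 to 27.3), under 21.3% of the others (19.4 to 23.3) and under 7.83% of ranked peaks. AGACGCAG stood under 82 (9.53%, 7.66 to 11.7), under 6.14% of the others (5.03 to 7.40) and under 1.48% of ranked peaks, and the first 2 intervals do not overlap. Between signals of 83.2 and 113, however, AGACGCAG was equally frequent, 8.26% in recurrent peaks and 8.25% in the others. The E-box CACGTG was present in 6.16%, 5.05% and 2.73%, and the TCF letters TCAAAG (or CTTTGA) in 3.49%, 5.42% and 6.81%. None of the 7 motifs was found in 460 recurrent peaks (53.5%). TGATNNAT, TGATTGAC and TGACAG can overlap in part, as can GAGAGA with itself.

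Motif content varied with location among the recurrent peaks. TGATNNAT was present in 6.10% of the promoter-proximal ones (23 of 377, 3.91 to 9.01), in 11.7% of intronic ones (18 of 154, 7.08 to 17.8) and in 12.6% of intergenic ones (39 of 309, 9.13 to 16.8), so the intervals of promoter and intergenic peaks did not overlap. Among the other conservative peaks the same shares were 9.11%, 12.4% and 10.02%, and the intervals of promoter and intergenic peaks overlapped (6.93 to 11.7 and 7.80 to 12.6). Beside a tRNA gene 1 of 87 recurrent peaks held TGATNNAT (1.15%, 0.0291 to 6.24) and none held AGACGCAG, for which the 95% interval reaches 4.15%. The others beside a tRNA gene were similar: 4 of 138 held TGATNNAT (2.90%, 0.795 to 7.26) and none held AGACGCAG. Away from tRNA genes AGACGCAG was in 10.6% of recurrent peaks (8.53 to 13.0) and in 6.69% of the others (5.49 to 8.07).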

How the data were processed

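The authors deposited peak lists on ce11; their aligner and peak caller are not given in the sources used here. Each peak has a deposited signal (the authors' strength value, scale not given), a deposited score scaled by IDR, and a deposited −log10 q-value. Conservative peaks were matched to the replicate lists by overlap of 1 bp, and summits were placed on Ensembl release 115 genes of WBcel235, the same assembly: no peak passed a chromosome end. Classes were assigned in the order promoter (500 bp), exon, intron, intergenic. Intervals are exact binomial (95%). No test was run, since both samples form 1 group and the signal was used by the rule.

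Members, gene lists and motifs were chosen with earlier results of these data known. Named were the strongest peak of each chromosome, ranks 16 to 35, extremes of signal and of replicate balance, all Hox and TALE genes and up to 4 genes of each other list. Sequences are of the strongest members per motif, outside chromosome I; windows touching annotated UTRs were also left out, a choice added later. Steps were tested on simulated data. The software was scipy 1.17.1 for intervals, pandas 2.3.3 and numpy 2.4.6 for tables and matplotlib 3.10.9 for plots, under Python 3.11.15.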

Additional observations from a re-analysis of the deposited data

Results flagged for a closer look

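The strongest ranked peak of the series is not in the conservative list and so could not be counted among the recurrent peaks. It lies on chromosome X at 15810939 to 15811167, 6937 bp upstream of Y7A5A.7, with a signal of 1643 in the ranked list of the series, 873 in that of replicate 1 and 876 in that of replicate 2. It drew attention as a signal in a list that the comparisons do not use: 30 ranked peaks of the series at or over the threshold score are absent from the conservative list, and 13 of these pass the threshold score in both replicates' ranked lists. Control libraries were not analysed here. Why these peaks are absent was not tested.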

How the results depend on the processing

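Of 197 values recomputed under other settings, 176 kept their direction and stayed within the tolerance, 6 moved and 15 changed sign. The tolerance was the 95% half-width (normal approximation) of the reported difference for shares, 1 SD over peaks for the median signal, 10 bp for summit distances and 1.5 times for counts. Membership by 1 list alone gave 1176 to 1330 peaks in place of 860 (without replicate 1 it was 1330). Under that choice the promoter difference between members and others was 5.98 to 7.10 points, the X difference -4.58 to -4.49, the median signal 108 to 116 and the genes with a peak 987 to 1136; the exonic, intronic, intergenic and tRNA differences ran from -3.40 to -2.22, -1.87 to -0.502, -3.01 to -2.08 and 1.65 to 1.77, and median summit distances from 14 to 15 bp. At signals of 83.2 to 113, chosen after seeing the data, the promoter difference was 3.07 points in place of 7.50, and the exonic (1.24), intronic (1.44), tRNA (-0.695), TGACAG (-1.21), GAGAGA (-1.58) and TCAAAG (0.893) differences changed sign. With scores of 1000 only, the exonic difference was -1.45 and that of TGACAG -0.0209, and with promoters of 250 bp the intergenic difference was 1.20. The remaining changes of sign were in motifs: TGATNNAT within 25 bp (0.876), TGACAG within 100 bp (-0.513) and, with membership by 1 list alone, TGATNNAT (-0.478 to 0.578), TGATTGAC (0.156 to 0.182), TGACAG (-0.615 to 0.581) and CACGTG (-0.199 to 1.61). By the nearest start alone, 15 ribosomal protein genes had a recurrent peak in place of 24. The cause was not tested. Leaving out peaks of signal under 20, also added later, changed no direction. No paired analysis was possible because both samples belong to 1 group.

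With 2 libraries, unknown depth and no control analysed here, the values describe these lists. Intervals treat peaks as independent, which overlapping peaks are not.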
